A study of Mus musculus with 20 samples.

Results

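The clustered protocadherins are neuronal cell-adhesion proteins encoded by neighbouring genes of the alpha (Pcdha), beta (Pcdhb) and gamma (Pcdhg) clusters on mouse chromosome 18. They were taken as every gene whose symbol is Pcdha, Pcdhac, Pcdhb, Pcdhga, Pcdhgb or Pcdhgc followed by a number. The rule gave 58 of the 55487 genes in the prefrontal cortex table and 58 of the 57180 genes in the hippocampus table. They were 14 alpha, 22 beta and 22 gamma genes. The symbol Pcdha11 was carried by a pair of gene IDs, so the 58 genes had 57 symbols, and the annotation lists Pcdhgb8 as a polymorphic pseudogene.

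RNA was measured by poly(A) RNA sequencing in dissected brain tissue of wild-type C57/BL6 mice aged 2 to 6 months. Prefrontal cortex came from male mice 24 hours after an intraperitoneal injection of 5 mg/kg lipopolysaccharide (LPS, which provokes inflammation; 4 mice) or of saline at 0.9% (4 mice). Hippocampus was taken at 24 hours from 6 mice that received nicotine at 0.2 mg/kg and from 6 that received saline at 0.9%, and the labels give neither the sex of these mice nor the route. Prefrontal cortex libraries were grouped by the column name quoted in each description, which the titles of 4 of the 8 records contradict, so every LPS comparison rests on the column names. The tissues were in separate tables and were compared only within each table, since any batch difference could not be told apart from tissue.

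A clustered protocadherin has extracellular cadherin repeats that bind the same isoform on a neighbouring cell, a single membrane-spanning segment and a cytoplasmic tail. Each alpha and gamma isoform joins its own large first exon to constant exons that the whole cluster shares, whereas a beta gene stands alone and has no constant exons. Single neurons choose small sets of alternate isoforms by promoter choice, and the combination lets neurites of the same neuron recognise and avoid each other. The C-type isoforms, Pcdhac1 and Pcdhac2 at the end of the alpha cluster and Pcdhgc3, Pcdhgc4 and Pcdhgc5 at the end of the gamma cluster, are used more uniformly.

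Of the 58 genes, 57 were listed at 0 in all 8 prefrontal cortex libraries and in all 12 hippocampal libraries. The exception was Pcdha1, the first gene of the alpha cluster. The 13 other alpha genes, all 22 beta genes and all 22 gamma genes had no count in either table. The tables therefore hold no level, order or treatment response for them, and nothing about their expression can be read from these values.

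The 0s covered the isoforms of every role. In the alpha cluster the alternate isoforms Pcdha2 to Pcdha9, both Pcdha11 IDs and Pcdha12 were listed at 0. So were the C-type Pcdhac1 and Pcdhac2, of which Pcdhac2 is needed in mice for serotonergic axons to spread evenly. In the gamma cluster the alternate A-type and B-type isoforms were listed at 0 throughout. So were Pcdhgc3, Pcdhgc4, on which the survival of mouse interneurons depends, and Pcdhgc5. In the beta cluster Pcdhb1 to Pcdhb22 were listed at 0.

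Library totals were 39871000 to 42924749 counts with LPS and 36371084 to 46106526 with saline in prefrontal cortex, and 53145736 to 62982229 with nicotine and 51969343 to 68196280 with saline in hippocampus. A count of 0 allows up to 3 counts, which is 0.0651 to 0.0825 CPM (counts scaled to a library of 1000000) in the prefrontal cortex libraries and 0.0440 to 0.0577 CPM in the hippocampal ones. These limits hold only for reads that the authors' counting could assign to a gene, and they cover counting error only. The mean log2(CPM + 0.5) of 10 neuron markers was 8.33 to 8.45 in LPS libraries and 8.30 to 8.44 in saline libraries of prefrontal cortex, and 9.19 to 9.28 in nicotine libraries and 8.86 to 9.22 in saline libraries of hippocampus. Neuronal RNA was thus abundant in every library, although 1 of these markers, Tubb3, was itself listed at 0 in prefrontal cortex.

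The genes listed at 0 share a position in the annotation. Coordinates and overlaps here are those of GENCODE vM21 on the mm10 build. The locus spans chromosome 18, 36930184 to 37841873 on the plus strand, or 911.69 kb. None of the 57 genes listed at 0 has a base of its gene body, introns included, that is free of other genes on the same strand. Pcdha1 has 9021 such bases, of which 2489 are exonic, and its body begins upstream of every other gene of the span on that strand.

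**Figure D1:**
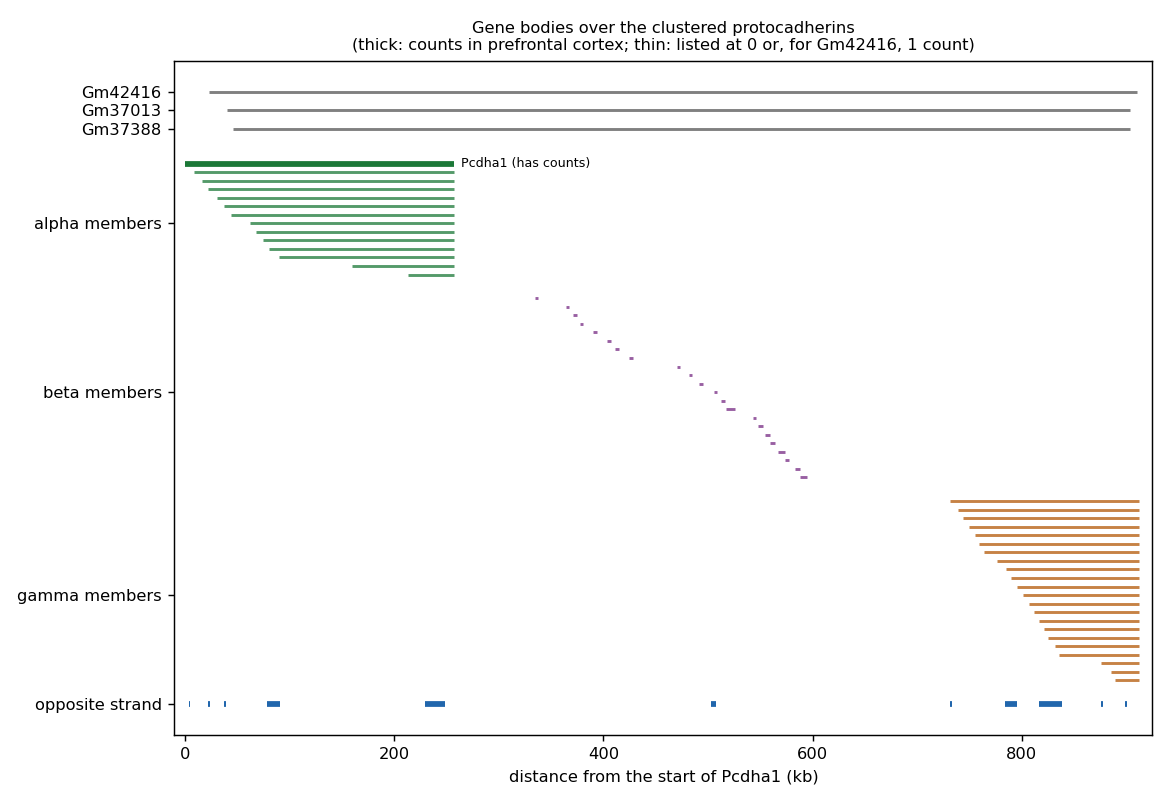
Gene bodies over the clustered protocadherins, drawn as lines by distance from the start of Pcdha1 in kb, with each alpha, beta and gamma gene on its own row, the 3 predicted read-through genes above and the 12 opposite-strand genes over member bodies on the lowest row. Thick lines have counts in the prefrontal cortex table and thin lines are listed at 0 or, for Gm42416, have 1 count; Pcdha1 is the only thick line among the members, and the opposite-strand gene listed at 0 (Gm38097) is hidden inside a neighbour.

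The overlap differs between the clusters. The alpha bodies (36930184 to 37187661) are nested with a common 3′ end, and 16 to 19 genes on the same strand lie over each. The gamma bodies (37661793 to 37841873) are nested in the same way, with 25 to 26 genes over each. The beta bodies (37264938 to 37524479) lie in a row, and only Pcdhb21 and Pcdhb22 overlap each other. Each beta body nevertheless lies inside 3 predicted genes, Gm42416, Gm37013 and Gm37388, which the annotation runs from the alpha to the gamma cluster.

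The clusters differ most when those 3 read-through genes are set aside. With them left out of the annotation, all 22 beta genes have free bases, and 20 of them are wholly free. In the alpha cluster only Pcdha1 has free bases without them, and in the gamma cluster only Pcdhga1, with 7160. The read-through genes carried almost no counts themselves, with 1 count for Gm42416 in 1 LPS library of prefrontal cortex and 0 elsewhere, and 0 in both tables for Gm37013 and Gm37388.

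Exon sharing followed another pattern. Counted by exons alone, every member has bases that no other gene's exons cover, 494 to 4606 in the alpha cluster (median 2480), 2588 to 8695 in the beta cluster (median 3714) and 1570 to 4614 in the gamma cluster (median 2630). Each alpha gene shares 2860 to 5274 exon bases with other genes and each gamma gene 2116 to 3157, while 2 of the 22 beta genes share any (455 bases, Pcdhb21 with Pcdhb22). The beta genes, which have almost no shared exon sequence, were listed at 0 like the others.

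**Figure D2:**
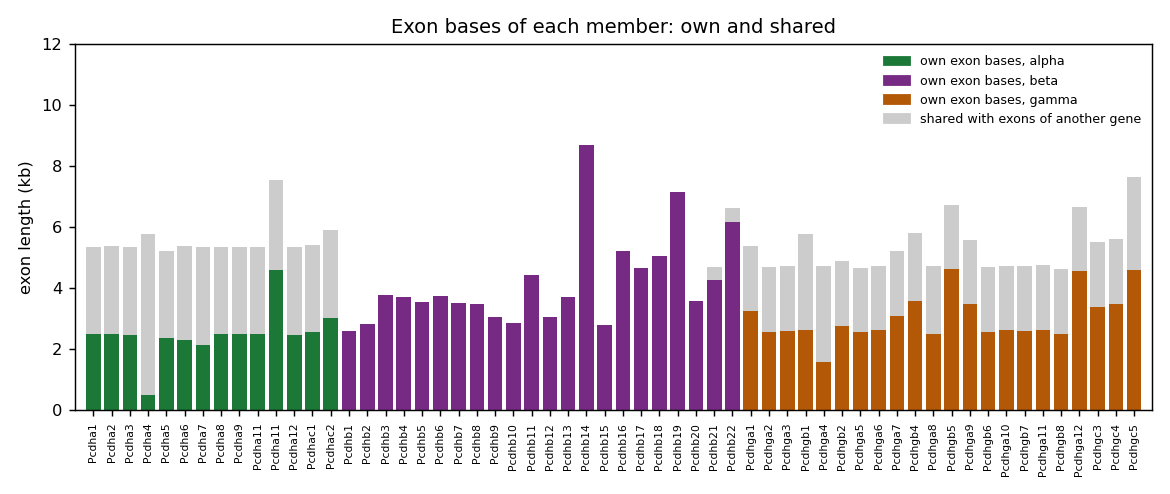
Exon length of each of the 58 members in kb, split into bases that no exon of another gene on the strand covers (coloured by cluster) and bases shared with such exons (grey). Own bases range from 494 in Pcdha4 to 8695 in Pcdhb14, and grey bars fill the alpha and gamma clusters but appear in only 2 beta genes.

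Other genes in the span followed strand in the same way. Of 12 further genes on the plus strand, including the read-through genes, 11 were listed at 0 in prefrontal cortex and all 12 in hippocampus. Of 12 genes on the minus strand that lie over member bodies, 11 had counts in each table, and the 1 at 0, Gm38097, lies inside another minus-strand gene. The minus-strand genes in the gaps, Slc25a2, Taf7 and Gm8242, also had counts.

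Across the genome the same class of gene was mostly listed at 0. Among protein-coding genes other than the members with no body base free of other genes on their strand, 364 of 393 (92.6%) were listed at 0 in every prefrontal cortex library and 325 of 412 (78.9%) in every hippocampal library. Among protein-coding genes with no other gene on their strand the shares were 15.4% and 14.7%. Requiring at least 500 exon bases free of other exons left the shares of the covered class at 92.5% and 76.4%. Genes lying inside an opposite-strand gene only were listed at 0 in 21% and 15.3% of cases.

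**Figure D3:**
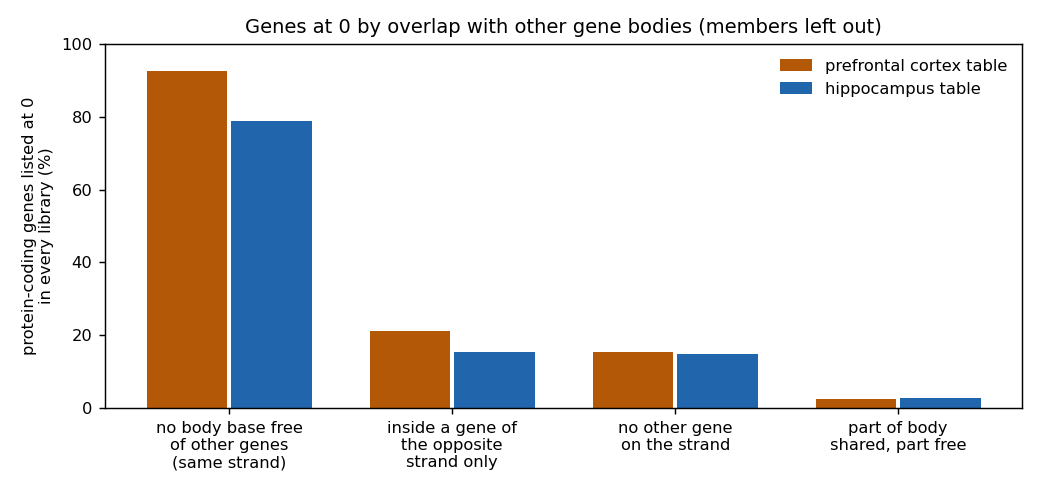
Share of protein-coding genes listed at 0 in every library of a table, in percent, by how their body overlaps other genes, with the clustered protocadherins left out. Bars reach 92.6% (prefrontal cortex) and 78.9% (hippocampus) for genes with no free base on their strand, and lie between 2.47% and 21% for the other classes.

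Named examples of that class were picked here after their values were seen. Sox2, Cenpb, Chchd2, Glo1, Ndufa13 and Taf9 have no free base and were listed at 0 in both tables. Cox4i1, Rpl13 and Tubb3, also without a free base in this annotation, were at 0 in prefrontal cortex but had 238898, 145003 and 179342 counts in hippocampus. Of 21368 protein-coding genes compared, 45 were at 0 in prefrontal cortex and at least 1 CPM in hippocampus, 38 of them without a free base, against 7 and 0 the other way round. For neither table do the sources used here give the counting unit, the strand setting, the treatment of overlaps or the annotation. The part of overlap in the 0s was not tested.

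Pcdha1 was the only member with a measurable level, and it did not pass the test in either tissue. It is an alternate alpha isoform. In prefrontal cortex it had 60, 54, 56 and 32 counts in the 4 LPS libraries, against 45, 52, 55 and 51 in the 4 saline libraries. The LPS library with 32 counts was the lowest of the 8, and the groups overlapped.

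After scaling by library size with the trimmed mean of M-values (TMM), Pcdha1 averaged 1.24 ± 0.295 CPM with LPS and 1.23 ± 0.115 CPM with saline (SD, n = 4 each). The log2 fold change was 0.01 (SE 0.24, 95% interval -0.52 to 0.55), with an adjusted p of 0.968 by edgeR's quasi-likelihood test with Benjamini-Hochberg adjustment over 17760 genes. The interval leaves room for a change of about 0.5 on the log2 scale in either direction. In this comparison 7313 of 17760 genes (41.2%) passed an adjusted p of 0.05, 3811 higher and 3502 lower with LPS. Of the 1 clustered protocadherin that could be tested, 0 were called by edgeR, DESeq2 or limma, and 0 had an unadjusted p under 0.05 by edgeR.

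In hippocampus Pcdha1 had 62, 22, 43, 53, 59 and 61 counts in the 6 nicotine libraries, against 54, 37, 43, 37, 82 and 41 in the 6 saline libraries. The lowest value was in a nicotine library and the highest in a saline library. It averaged 0.838 ± 0.213 CPM with nicotine and 0.816 ± 0.193 CPM with saline (SD, n = 6 each). The log2 fold change was 0.04 (SE 0.21, 95% interval -0.41 to 0.49; edgeR quasi-likelihood test, adjusted p = 0.974 over 18873 genes).

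The hippocampal comparison called 0 of 18873 genes (0%) by edgeR, with 1577 at an unadjusted p under 0.05, and DESeq2 called 8 higher and 7 lower. None of those calls was a clustered protocadherin, and Pcdha1 had an unadjusted p of 0.856. Transthyretin (Ttr), the main secreted protein of the choroid plexus, ran between 15.3 and 3682 CPM across the hippocampal libraries and exceeded 1000 CPM in 2 nicotine and 2 saline libraries. Without those 4 libraries the log2 fold change of Pcdha1 was 0.06 (edgeR, adjusted p = 0.937).

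**Figure D4:**
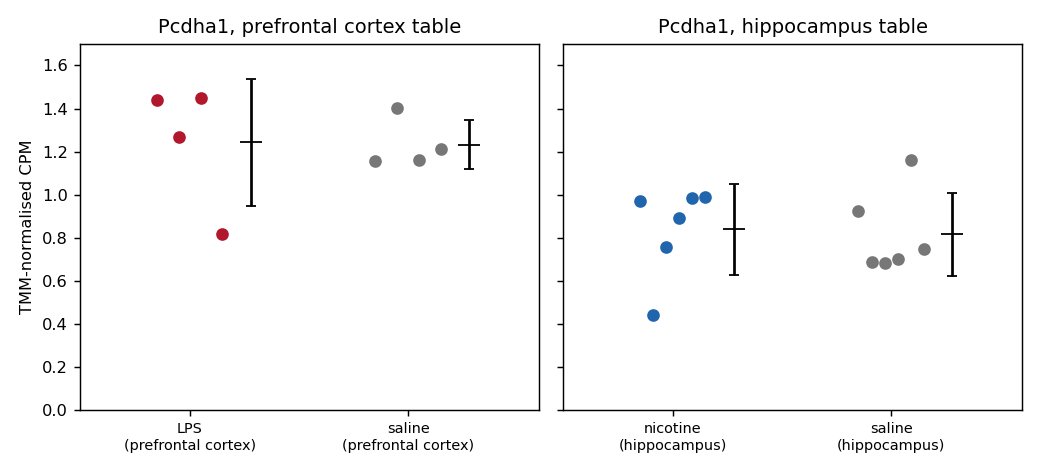
Pcdha1 in TMM-normalised CPM in each library (points), with the mean and SD beside each group, for LPS and saline in prefrontal cortex and for nicotine and saline in hippocampus. Means are 1.24 and 1.23 CPM in prefrontal cortex and 0.838 and 0.816 CPM in hippocampus, and the points of each pair of groups overlap.

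The free bases of Pcdha1 hold its own first exon and part of the intron after it. Which bases its reads came from is not recorded in a count table and was not tested. The free bases also lie over Gm37751, an opposite-strand gene with 13 counts in prefrontal cortex and 24 in hippocampus.

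RNA was also counted on the strand opposite to the members. In human cells antisense transcription through alpha first exons is known to take part in promoter choice. Of the 12 minus-strand genes over member bodies, 4 were abundant enough to be tested in prefrontal cortex and 5 in hippocampus. With LPS 0 of the 4 were higher and 1 was lower, Gm26672, in a comparison that called 41.2% of all genes, and with nicotine 0 were called by edgeR, DESeq2 or limma and 0 had an unadjusted p under 0.05 by edgeR. The other 8 in prefrontal cortex and 7 in hippocampus had too few counts.

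Gm26672 is an uncharacterised processed transcript inside the gamma cluster (chromosome 18, 37746559 to 37768242, minus strand). Of its 6918 exon bases, 5187 lie opposite exons of the alternate gamma isoforms Pcdhga10, Pcdhgb7, Pcdhga11 and Pcdhga12. It had 6.62, 3.61, 4.45 and 3.35 CPM in LPS libraries, against 11.3, 9.56, 11.1 and 10.6 CPM in saline libraries. All 4 LPS libraries lay below all 4 saline libraries, and the groups did not overlap for 6588 of the 17760 genes tested (37.1%).

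Gm26672 averaged 4.51 ± 1.48 CPM with LPS and 10.7 ± 0.785 CPM with saline (SD, n = 4 each), a log2 fold change of -1.24 (SE 0.20; edgeR, adjusted p = 0.000579). Its log2 fold change stayed between -1.49 and -1.13 over 16 other settings, with adjusted p of 1.15e-08 to 0.00290. Grouped by the contradicting titles instead, edgeR called 0 genes of the whole table. In hippocampus it averaged 6.45 ± 0.731 CPM with nicotine and 6.12 ± 0.477 CPM with saline (SD, n = 6 each), a log2 fold change of 0.08 (SE 0.10; edgeR, adjusted p = 0.838). With no strand setting on record, reads of the gamma isoforms themselves cannot be told apart from Gm26672 reads here. In bulk tissue, fewer cells of a type and less RNA per cell cannot be told apart either.

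Markers of other cell types were read in the same libraries, where 41.2% of all genes were called. With LPS, 0 of 10 oligodendrocyte markers were higher and 5 lower, and their mean log2(CPM + 0.5) was 5.95 to 6.45 in LPS libraries and 6.68 to 7.08 in saline libraries. Of 8 oligodendrocyte precursor markers 1 was higher and 5 lower (4.12 to 4.54 with LPS, 4.97 to 5.19 with saline). Of 10 microglia markers 2 were higher and 5 lower (4.31 to 4.66 with LPS, 5.01 to 5.16 with saline), P2ry12, a purine receptor of resting microglia, among the lower ones. None of the markers in these 3 lists was at 0, and their part in the Gm26672 result was not tested. Other lists went differently. Of 10 astrocyte markers 2 were higher and 4 lower, and of 9 endothelial markers 4 were higher and 3 lower. Of 9 neuron markers tested 2 were higher and 2 lower, and of 8 CA pyramidal neuron markers 4 were higher and 0 lower. Of 8 dentate granule markers 0 were higher and 2 lower, and of 9 choroid plexus markers tested 1 was higher and 0 lower. Striatum markers ranged from 3.87 to 6.50 with LPS and from 4.04 to 6.38 with saline, and with them as a covariate Gm26672 had a log2 fold change of -1.31 (edgeR, adjusted p = 0.000519).

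The other opposite-strand genes did not pass the test. BC037039, of whose 2205 exon bases 1559 lie opposite Pcdhgc3, had 1.27, 1.20, 1.73 and 2.02 CPM in LPS libraries, against 1.28, 0.997, 1.20 and 0.855 CPM in saline libraries, a log2 fold change of 0.52 (SE 0.25; edgeR, adjusted p = 0.124), and the groups overlapped. Gm10545, opposite Pcdha11 and Pcdha12, had a log2 fold change of 0.76 (SE 0.43; edgeR, adjusted p = 0.179). Gm10544, which overlaps Pcdha11 exons, had -0.01 (SE 0.43; edgeR, adjusted p = 0.991).

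Gm29994, near the 3′ end of the gamma cluster, was too low to be tested in prefrontal cortex. It had 9, 8, 6 and 11 counts in the LPS libraries and 2, 0, 1 and 2 counts in the saline libraries, with no overlap between the groups. The saline counts lie within the 3 counts that a count of 0 allows, and the gene was picked after its values were seen. The share of 37.1% without overlap covers tested genes only, so no share is given for genes this low. In hippocampus the 5 tested opposite-strand genes had log2 fold changes between 0.08 and 0.45, all with adjusted p of 0.761 or more by edgeR. Among them Gm37165, opposite Pcdhga7 and Pcdhga8, had 0.20 (SE 0.23; edgeR, adjusted p = 0.814).

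**Figure D5:**
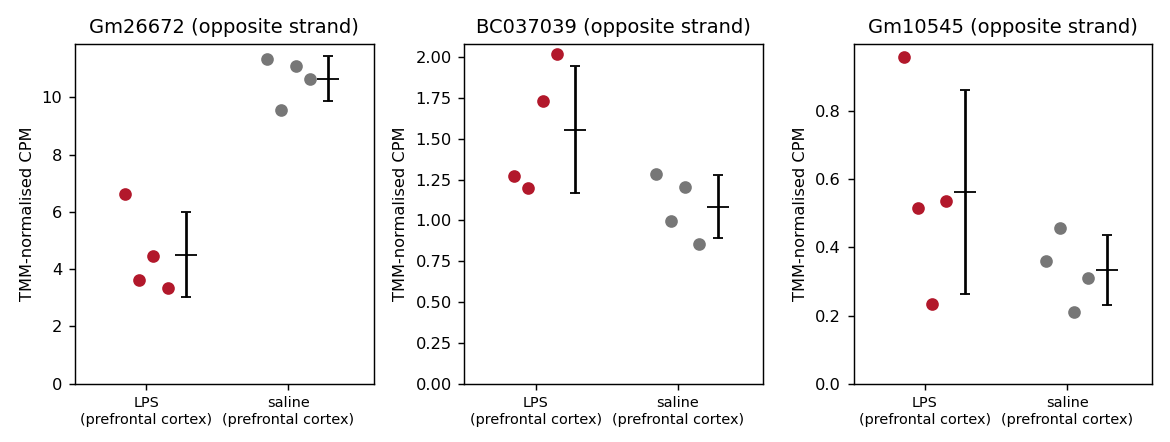
Opposite-strand genes Gm26672, BC037039 and Gm10545 in TMM-normalised CPM in each prefrontal cortex library (points), LPS left and saline right, with the mean and SD beside each group. Gm26672 averages 4.51 CPM with LPS and 10.7 CPM with saline without overlap, and the groups overlap for the other genes.

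The nonclustered protocadherins, which lie outside this locus, could be read in the same libraries. Of 12, 11 were tested in prefrontal cortex, 0 were higher and 3 lower with LPS, where 41.2% of all genes were called, with a median log2 fold change of -0.19 against 0.01 over all genes tested. Pcdh20 had 16.7, 14.1, 13.8 and 17.8 CPM in LPS libraries, against 37.2, 36.6, 49.8 and 32.9 CPM in saline libraries, a log2 fold change of -1.33 (SE 0.14; edgeR, adjusted p = 4.06e-05). Pcdh1, an adhesion protein of brain and epithelium, averaged 183 ± 30.6 CPM with LPS and 310 ± 35.7 CPM with saline (SD, n = 4 each; log2 fold change -0.76, SE 0.12; edgeR, adjusted p = 0.000515). Pcdh18 averaged 4.84 ± 0.483 CPM with LPS and 8.82 ± 2.15 CPM with saline (SD, n = 4 each; log2 fold change -0.87, SE 0.18; edgeR, adjusted p = 0.00281). In each of the 3 the LPS and saline libraries did not overlap, as for 37.1% of all genes tested.

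With nicotine, 0 of the 12 nonclustered protocadherins were called by edgeR, with a median log2 fold change of 0.16 against 0.00 over all genes tested. By edgeR 4 of the 12 had an unadjusted p under 0.05, beside 1577 of all 18873 genes tested. Of these 4, Pcdh7 (log2 fold change 0.25), Pcdh10 (0.21) and Pcdh11x were higher and Pcdh20 was lower (-0.22). The smallest p was that of Pcdh11x, which averaged 12.1 ± 1.09 CPM with nicotine and 8.97 ± 0.759 CPM with saline (SD, n = 6 each; log2 fold change 0.43, SE 0.08; edgeR, adjusted p = 0.555). DESeq2 called Pcdh11x, with an adjusted p of 0.00234.

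Genes that act on the clusters or carry their signals had counts, and their counts of calls with LPS are set here beside the 41.2% called over all genes. Clustered promoters are chosen through CTCF and cohesin loops, and 13 genes of that machinery were tested. By edgeR 2 were higher and 2 lower (median log2 fold change 0.10). By DESeq2 4 were higher and 2 lower, where it called 4000 higher and 3781 lower among 17754 genes. Whether the share of calls in this list differs from that over all genes was not tested. Wapl, which releases cohesin from DNA, averaged 79.8 ± 8.52 CPM with LPS and 54.1 ± 2.56 CPM with saline (SD, n = 4 each; log2 fold change 0.56; edgeR, adjusted p = 0.000448). Hdac8, which deacetylates cohesin, averaged 13.0 ± 1.35 CPM with LPS and 18.2 ± 0.880 CPM with saline (SD, n = 4 each; log2 fold change -0.48; adjusted p = 0.00330). Ctcf, the factor that anchors the loops (0.21; adjusted p = 0.0442), and Smc1a, a cohesin subunit (-0.19; adjusted p = 0.0459), lay near the threshold and each lost its call under 10 of 16 other settings. Of 12 genes of DNA methylation and silencing 3 were higher and 0 lower by edgeR, and 3 higher and 1 lower by DESeq2. Higher by edgeR were among others Tet2, a demethylating enzyme (log2 fold change 0.75, edgeR adjusted p = 0.00140), and Trim28, a co-repressor (0.37, edgeR adjusted p = 0.0308). Trim28 lost its call under 7 of 16 other settings.

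Cytoplasmic partners were counted in the same way. The WAVE complex, which drives actin branching and binds the tails of some clustered protocadherins, had 6 of 10 genes higher and 2 lower with LPS (median log2 fold change 0.23), beside 41.2% called among all genes. Its subunit Abi1 averaged 246 ± 24.9 CPM with LPS and 127 ± 6.45 CPM with saline (SD, n = 4 each; log2 fold change 0.95; edgeR, adjusted p = 1.03e-05). Of 8 kinases and signalling partners 2 were higher and 1 lower, among them the focal adhesion kinase relative Ptk2b, which clustered protocadherins inhibit (log2 fold change 0.35; edgeR, adjusted p = 0.00116), and Marcks, an actin-linked substrate of protein kinase C (-0.51; adjusted p = 0.000722). Among proteases that cut protocadherins, Ncstn, a subunit of gamma-secretase, was higher with LPS (log2 fold change 0.46; edgeR, adjusted p = 0.00137). Of 8 adhesion partners 2 were higher, Nlgn2 (0.33; edgeR, adjusted p = 0.0103) and Nlgn1 (0.22; adjusted p = 0.0385, call lost under 10 of 16 other settings), and 0 lower. Nlgn2 and Nlgn1 are postsynaptic neuroligins, and gamma protocadherins bind neuroligins in mouse neurons. In hippocampus 0 genes of these lists were called by edgeR, DESeq2 or limma, with Tet2 (0.23) and Nrxn2, a presynaptic neurexin (0.19), at an unadjusted p under 0.05 by edgeR.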

How the data were processed

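The authors deposited 1 table of raw counts per gene for each tissue, and the submitters' processing notes name fastp, STAR, featureCounts, DESeq2 and the mm10 build without versions or roles. TRIzol extraction and poly(A) selection are per the labels' protocols. Gene positions and overlaps came from GENCODE vM21, and 51933 of 57180 hippocampal IDs matched it. Counts of each table were tested separately in R 4.3.3 using edgeR 4.0.16 (filterByExpr, TMM scaling, quasi-likelihood F-test, Benjamini-Hochberg adjustment over all genes tested, threshold 0.05). Alternatives were DESeq2 1.42.0, limma 3.58.1 (voom), other scaling and filters, each library left out, a replicate block, other groupings and marker covariates. The code was tested on simulated data. Labels number biological replicates; p-values measure the spread between these samples.

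Members and lists were chosen with earlier results of these data known, and the overlap classes and opposite-strand genes after the 0s were seen. Named by rule were the C-type members, called members, members with the smallest p and up to 4 called genes per other list, with Ttr. Other named genes were chosen after their values were seen. Sequences were not used here. Some genes of the lists are not reported here.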

Additional observations from a re-analysis of the deposited data

Results flagged for a closer look

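Saline library 2 of hippocampus lay far below the other 5 saline libraries for 3 nonclustered protocadherins. It had 88.7 CPM of Pcdh10, where the others had 107 to 114, 82.9 CPM of Pcdh17, where the others had 110 to 122, and 64.6 CPM of Pcdh19, where the others had 93.6 to 106. In each case the gap to its nearest neighbour exceeded Dixon's limit at 95% for the group's range. Chance gives such a gap in about 1 of 20 groups, and 68 groups were looked at. Without that library the log2 fold changes with nicotine were 0.17 for Pcdh10, 0.06 for Pcdh17 and -0.13 for Pcdh19, and none of the 3 passed the test with or without it. Pcdha1 had 37 counts in that library, as in saline library 4.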

How the results depend on the processing

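The counts of clustered protocadherins called in each direction were 0 in all 176 pairings of such a count with another setting. Counts per cluster were made in prefrontal cortex only. Members listed at 0 could not be called under any setting, so these counts speak only for Pcdha1, the 1 member that could be tested. Over its alternatives the log2 fold change of Pcdha1 ran from -0.18 to 0.16 in prefrontal cortex (adjusted p of 0.620 to 1.00) and from -0.01 to 0.17 in hippocampus (adjusted p of 0.806 to 0.999), where a filter of 1 CPM left it untested. The replicate block gave -0.0070 (edgeR, adjusted p = 0.989) and 0.03 (adjusted p = 0.972). Deviations of same-numbered libraries correlated at -0.200 to -0.0386 in 4 pairs of prefrontal cortex libraries. In 6 pairs of hippocampal libraries the correlations were -0.187 to 0.549. Whether same-numbered libraries share more than a number was not tested. In prefrontal cortex the block left 3144 genes higher and 2920 lower, and the 4 libraries whose labels agree gave 2826 and 2864. Grouped by title instead, edgeR called 0 genes there, with 201 at an unadjusted p under 0.05, so the calls of opposite-strand, nonclustered and partner genes rest on the column names.

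Of 977 alternatives for single genes (those for opposite-strand, nonclustered and partner genes added after the data were seen), 910 stayed on the same side of the threshold, 63 lost a call and 0 turned the sign of a called value. In 37 of the 910 the sign of a value that passed in neither fit changed, over 10 gene and tissue pairs that include Pcdha1 in both tissues. The losses, under left-out libraries, the block and the missing filter among other settings, included Abi2, Brk1, Ctcf, Cyfip1, Nlgn1, Nlgn2, Rac1, Smc1a and Trim28. Another 4 gained a call, 1 each for Pcdh10, Pcdh11x and Pcdh17 in prefrontal cortex and 1 for Pcdh11x in hippocampus. In prefrontal cortex the list counts ran from 4 to 7 higher and 0 to 2 lower for the WAVE complex, and from 1 to 5 higher and 1 to 3 lower for cohesin. Medians over members and an order by level per length were not run, since only Pcdha1 had counts. Depth limits Pcdha1, with 22 to 82 counts a library.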
